A study of Macaca mulatta with 13 samples.

Results

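The activator protein 1 (AP-1) transcription factor family was examined in peripheral blood mononuclear cells of rhesus macaques that had been reared in 3 ways. The family was taken as 8 genes, FOS, FOSB, FOSL2, JUN, JUNB, JUND, ATF3 and BATF, and its members here were all probe sets that the platform annotation pairs with exactly 1 of these symbols. These were 9 of the 52865 probe sets on the array, for 6 of the 8 genes and of the 14132 genes that have such a probe set: 1 each for FOS, JUNB, JUND and BATF, 2 for FOSL2 and 3 for ATF3. FOSB and JUN are paired with 0 probe sets in that annotation, so they were not analysed here.

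The animals were 4 months old and fell into a maternal group of 5 arrays, raised by their mothers, a peer group of 4 arrays and a surrogate-peer group of 4 arrays, and the question was whether expression in blood leukocytes depends on early rearing. All groups share the tissue, the age and the array type, and no group received an agent or carries an altered gene according to the labels. Total RNA was labelled with biotin and hybridised to an Affymetrix rhesus array, and each probe set has 1 value per array on the log2 scale. The maternal animals are the reference group, and each of the comparisons with them uses the same 5 arrays.

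AP-1 is a dimer of basic leucine zipper proteins. Fos proteins (FOS, FOSB, FOSL2) cannot pair with themselves and bind DNA with a Jun partner (JUN, JUNB, JUND), while ATF3 and BATF form dimers with Jun proteins that can repress or redirect AP-1 sites. FOS, JUNB and ATF3 are immediate early genes, whose transcripts appear within minutes of a signal and decay quickly. In lymphocytes and monocytes AP-1 is known for driving cytokine and activation genes downstream of antigen receptors, Toll-like receptors and stress kinases.

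Of the 9 probe sets, 7 had a mean over the 13 arrays above the filter of 6.04 on the log2 scale and were tested; the second set of FOSL2 (mean 5.84) and the third set of ATF3 (mean 4.62) lay below it. The main comparison set the 8 peer and surrogate-peer arrays together against the 5 maternal arrays. In it 1 of the 7 tested probe sets, the brightest of ATF3, passed the threshold of an adjusted p of 0.05, and it fell. Over all 26383 tested probe sets 7.99% passed in this comparison, 6.64% with higher and 1.35% with lower values (1751 and 356 sets, or 1093 and 830 with array medians centred), so 1 member in 7 is not a count that sets the family apart. At an unadjusted p under 0.05 the count was 3 of 7 (ATF3, FOSL2 and JUND), against 29% of all. Fold changes were negative at 6 of the 7 sets, against 49% of all, and positive at FOS, with a median of -0.21 against 0.01 over all tested probe sets. Because whole blood mononuclear cells were measured, fewer cells of a type and less RNA per cell cannot be told apart in any of these values.

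**Figure D1:**
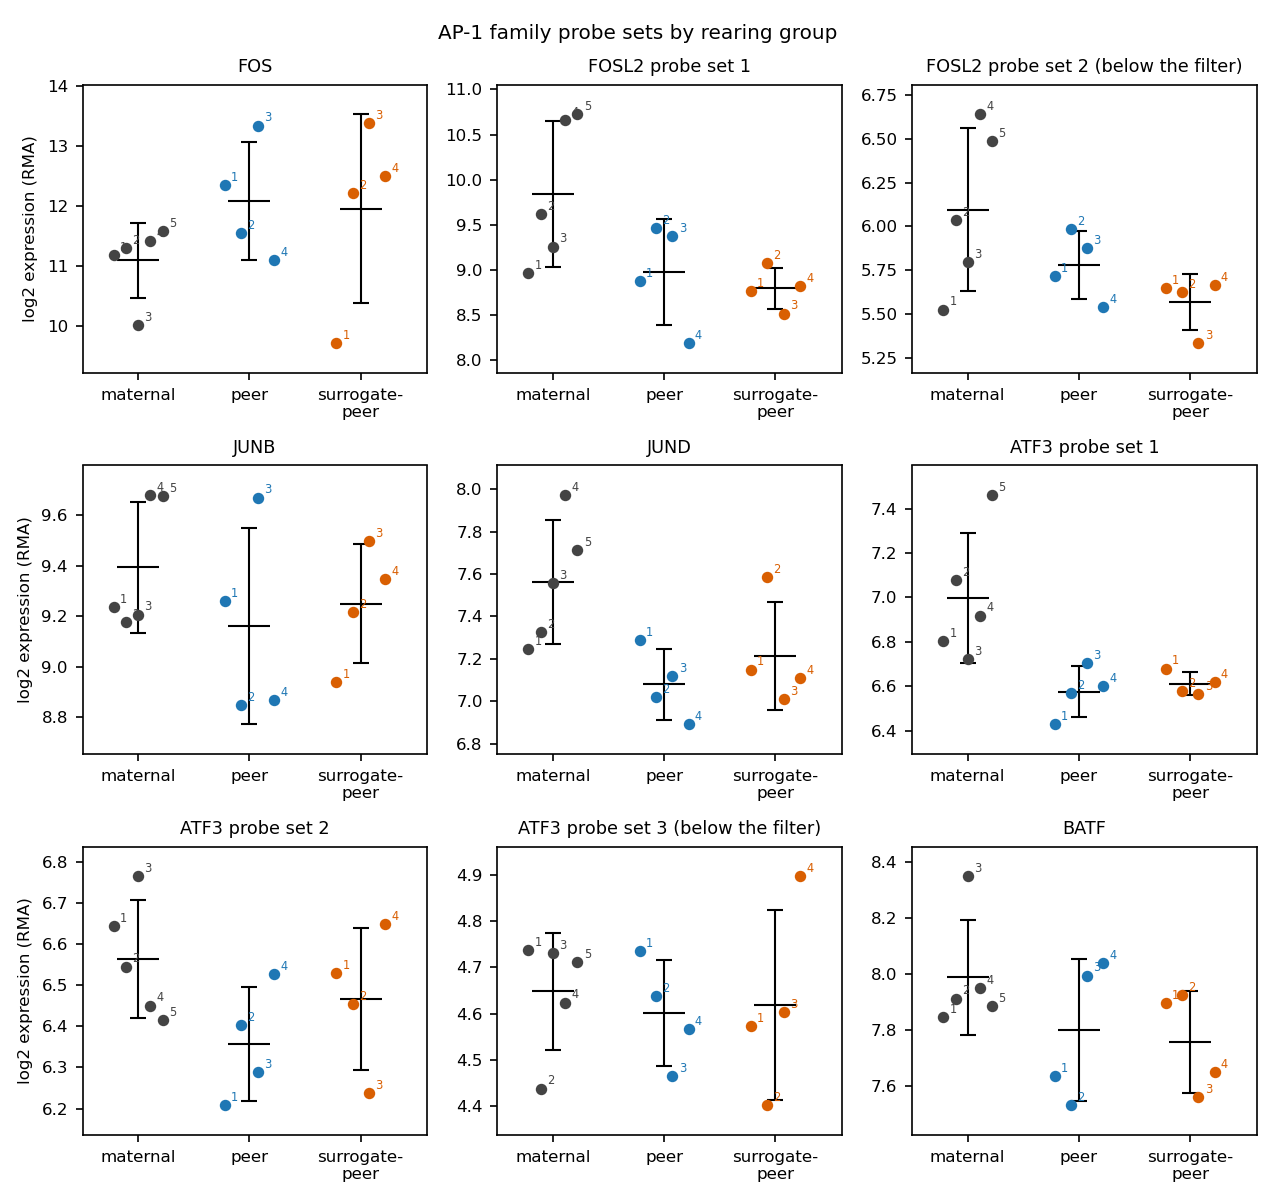
Log2 expression of the 9 AP-1 probe sets (1 panel each) by rearing group. Each point is 1 array, its small number is the array's number within the group, and the bars give the mean and 1 SD. The first ATF3 set is the panel in which the maternal arrays and the other arrays do not overlap, and FOS spreads most, from 9.72 to 13.39.

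FOS encodes the inducible partner of Jun proteins and varied more between animals than between groups. Its values on the 5 maternal arrays were 11.19, 11.31, 10.02, 11.42 and 11.59. The peer arrays gave 12.36, 11.56, 13.35 and 11.10, and the surrogate-peer arrays 9.72, 12.23, 13.39 and 12.50. In words, 5 of the 8 non-maternal arrays lay above every maternal array, but surrogate-peer array 1 lay below all of them, and the groups overlapped.

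FOS averaged 11.11 ± 0.62 (SD, n = 5) under maternal rearing. Peer animals averaged 12.09 ± 0.98 and surrogate-peer animals 11.96 ± 1.57 (SD, n = 4 each). The difference of non-maternal from maternal arrays was 0.92 ± 0.56 on the log2 scale (SE), a 1.89-fold higher level with a 95% interval from 0.822-fold to 4.36-fold, and it did not pass (limma adjusted p = 0.282). This interval includes no change as well as a difference of several fold, so the number of animals does not settle FOS. Across the surrogate-peer group alone FOS covered 3.67 log2 units, or 12.8-fold, against 2.96-fold in the maternal group. With the number in the sample title as a covariate the difference was 0.12 (adjusted p = 0.915), and with the 3' to 5' ratio of control transcripts as a covariate it was 0.40 (adjusted p = 0.793). Without surrogate-peer array 1 it was 1.29 (adjusted p = 0.0720). What that number counts is not stated in the labels; maternal samples carry 31 to 55, peer samples 35 to 47, surrogate-peer samples 9 to 32.

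FOSL2 (Fra-2) is a Fos protein without the strong activation domains of FOS and appears later after stimulation. Its brightest probe set gave 8.96, 9.62, 9.26, 10.67 and 10.73 in maternal animals. The peer values were 8.87, 9.46, 9.37 and 8.18, and the surrogate-peer values 8.77, 9.07, 8.51 and 8.82. Maternal arrays 4 and 5 stood above all others, maternal array 2 was next, and maternal arrays 1 and 3 lay within the range of the peer animals. Of the 8 non-maternal arrays 5 lay below every maternal array.

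The maternal mean of FOSL2 was 9.85 ± 0.81 (SD, n = 5), against 8.97 ± 0.59 for peer and 8.79 ± 0.23 for surrogate-peer rearing (SD, n = 4 each). The difference was -0.96 ± 0.32 (SE), with a 95% interval from -1.65 to -0.28, and missed the threshold after adjustment over all probe sets (limma adjusted p = 0.0747). Of all tested probe sets 13.1% had a smaller p. Leaving out maternal array 1 gave -1.18 with an adjusted p of 0.0222, while leaving out maternal array 4 or 5 gave -0.76 and -0.74 with adjusted p of 0.192 and 0.173. The second FOSL2 probe set, which lay below the filter and was not tested, followed the first closely over the 13 arrays (Pearson r = 0.96, permutation p = 1e-05, the smallest these resamples can give, Spearman rho = 0.88, permutation p = 1.8e-04). Without maternal arrays 4 and 5, which lay farthest from the median, r was 0.85. It averaged 6.10 ± 0.47 on the maternal arrays (SD, n = 5), then 5.78 ± 0.19 for peer and 5.57 ± 0.16 for surrogate-peer rearing (SD, n = 4 each), the same order as at the first set.

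JUNB, a Jun protein induced together with FOS that often restrains JUN, differed little between groups. Maternal values were 9.24, 9.18, 9.21, 9.68 and 9.68. Peer values were 9.26, 8.85, 9.67 and 8.87, and surrogate-peer values 8.94, 9.22, 9.499 and 9.35. The groups overlapped throughout, and maternal arrays 4 and 5 and peer array 3 were the highest. The difference of non-maternal from maternal arrays was -0.19 ± 0.16 (SE, limma adjusted p = 0.434), with a 95% interval from -0.53 to 0.15, so a difference of more than 1.45-fold lower or 1.11-fold higher lies outside that interval.

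JUND is the Jun protein that resting cells express constantly. It gave 7.24, 7.33, 7.56, 7.97 and 7.71 on the maternal arrays. The peer arrays gave 7.29, 7.02, 7.12 and 6.89, and the surrogate-peer arrays 7.15, 7.59, 7.01 and 7.11. Of the 8 non-maternal arrays 6 lay below every maternal array, the exceptions being peer array 1 and surrogate-peer array 2, and the highest values were again on maternal arrays 4 and 5.

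JUND averaged 7.56 ± 0.29 under maternal rearing (SD, n = 5), with 7.08 ± 0.17 for peer and 7.21 ± 0.26 for surrogate-peer animals (SD, n = 4 each). The difference was -0.42 ± 0.13 (SE), a level 1.33-fold lower, and did not pass after adjustment (limma adjusted p = 0.0723). The 3' to 5' ratio of the control transcripts ran from 1.56 to 2.22 log2 units on maternal arrays, from 1.38 to 1.74 on peer arrays and from 1.31 to 1.44 on surrogate-peer arrays. With it as a covariate, the JUND difference was -0.22 (adjusted p = 0.503). Without maternal array 1 the adjusted p was 0.0288, and without surrogate-peer array 2 it was 0.0499. The JUND set carries the suffix that Affymetrix gives to probe sets whose probes match several transcripts, so signal from a related transcript may be included.

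ATF3 is a stress-induced factor of the ATF/CREB branch that dampens inflammatory transcription in macrophages, and its brightest probe set was the member that passed. The maternal values were 6.80, 7.08, 6.72, 6.92 and 7.46. Peer values were 6.43, 6.57, 6.71 and 6.60, and surrogate-peer values 6.68, 6.58, 6.57 and 6.62. All 8 non-maternal arrays lay below all 5 maternal arrays, with a gap of 0.019 between the lowest maternal value (array 3) and the highest other value (peer array 3). Such a separation, in either direction, was seen in 2.86% of all tested probe sets, and with the non-maternal arrays lower in 0.97%.

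This ATF3 set averaged 6.997 ± 0.29 under maternal rearing (SD, n = 5), with 6.58 ± 0.11 for peer and 6.61 ± 0.05 for surrogate-peer animals (SD, n = 4 each). It fell by 0.40 ± 0.11 on the log2 scale (SE, limma adjusted p = 0.0441), which is 1.32-fold, with a 95% interval from 1.12-fold to 1.56-fold lower. The maternal SD was the widest of the 3, while the model uses 1 estimate of the spread for all groups. The call was lost in 11 of the 13 analyses that left out 1 array, in which adjusted p ran from 0.0217 to 0.0942. It passed without maternal array 1 or maternal array 3 and was lost without any of the other arrays. Without maternal arrays 2 and 5, the highest pair, the difference was -0.22 (adjusted p = 0.133). Leaving out the highest maternal values narrows this difference in any case, so that refit is no separate check of the call. With the 3' to 5' ratio as a covariate the difference was -0.68 (adjusted p = 0.0256).

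The other ATF3 probe sets gave smaller differences, and the one tested did not pass. The second set gave maternal values of 6.65, 6.55, 6.77, 6.45 and 6.42, with its lowest maternal value on array 5, where the first set was highest. Its difference was -0.15 ± 0.09 (SE, limma adjusted p = 0.272), and the groups overlapped. The relation of the first and second sets over the 13 arrays did not pass (Pearson r = 0.18, permutation p = 0.557, adjusted p = 0.743; Spearman rho = 0.47, permutation p = 0.11, adjusted p = 0.22), and r was 0.47 without maternal arrays 2 and 5. The third set, below the filter, averaged 4.65 under maternal, 4.60 under peer and 4.62 under surrogate-peer rearing. The ATF3 result therefore rests on 1 of 3 probe sets of the gene. When the first and second sets were averaged per array, the difference was -0.28 (adjusted p = 0.0357).

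BATF, which lacks an activation domain and pairs with Jun proteins and IRF4 in lymphocytes, ran from 7.85 to 8.35 under maternal rearing, from 7.53 to 8.04 under peer rearing and from 7.56 to 7.93 under surrogate-peer rearing. The groups overlapped, with maternal array 3 (8.35) the highest and the other 4 maternal arrays between 7.85 and 7.95. The difference was -0.21 ± 0.12 (SE, limma adjusted p = 0.250), with a 95% interval from -0.47 to 0.05.

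**Figure D2:**
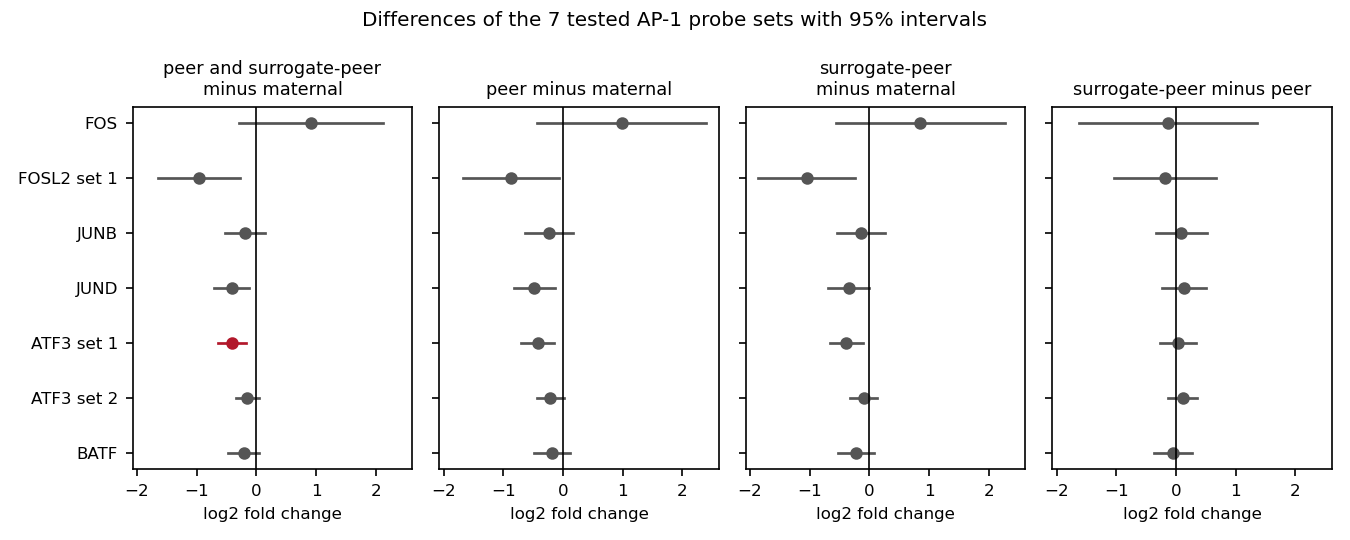
Log2 fold changes (points) with 95% intervals (lines) of the 7 tested AP-1 probe sets in the 4 comparisons; red marks a limma adjusted p under 0.05. The first ATF3 set (-0.40) in the leftmost panel is the red point, the FOS intervals are the widest, and all intervals of surrogate-peer minus peer include 0.

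Each nursery group was next set against the maternal animals by itself, and both comparisons share the maternal arrays. In peer animals 0 of the 7 AP-1 probe sets passed limma's threshold, against 0.352% of all tested probe sets, and 3 had an unadjusted p under 0.05, against 24.9% of all. In surrogate-peer animals 0 of 7 passed, against 0% of all, with 3 at an unadjusted p under 0.05, against 20.3%. The background counts were unstable. For peer animals 93 probe sets passed, but 3485 without maternal array 1 and 0 without maternal array 3 or 4, without peer array 3 or 4 or without surrogate-peer array 1. For surrogate-peer animals 0 passed, but 2096 without maternal array 1. In both comparisons the AP-1 sets at an unadjusted p under 0.05 were the first sets of ATF3 and FOSL2, and JUND. Differences were negative at 6 of 7 sets in each, against 49.4% of all for peer and 47.9% for surrogate-peer animals.

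The first ATF3 set differed by -0.42 ± 0.13 (SE, limma adjusted p = 0.0866) in peer and by -0.39 ± 0.13 (SE, adjusted p = 0.139) in surrogate-peer animals, and in both its values lay wholly below the maternal values. That separation occurred in 9.48% of all tested probe sets for peer animals, 3.86% with the peer values lower. For surrogate-peer animals it occurred in 5.44%, 2.48% with the lower values. The first FOSL2 set differed by -0.87 ± 0.37 (adjusted p = 0.172) in peer and by -1.05 ± 0.37 (adjusted p = 0.153) in surrogate-peer animals. JUND differed by -0.48 ± 0.16 (adjusted p = 0.102) and -0.35 ± 0.16 (adjusted p = 0.241). FOS gave 0.99 ± 0.65 (adjusted p = 0.354) and 0.85 ± 0.65 (adjusted p = 0.476) in the same order. Without maternal array 1 the peer comparison called 2 AP-1 sets, JUND and ATF3, and the surrogate-peer comparison 1, FOSL2. A moderated F test for any difference among the 3 groups called 0 of 7 AP-1 sets, against 0.0872% of all, with 3 of 7 at an unadjusted p under 0.05, against 20% of all.

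The direct comparison of surrogate-peer with peer animals tests whether the 2 forms of nursery rearing differ. None of the 7 AP-1 sets passed (0 by limma, against 0% of all tested probe sets), and 0 had an unadjusted p under 0.05, against 1.83% of all. The differences ran from -0.18 ± 0.39 (SE) for FOSL2 to 0.13 ± 0.17 for JUND, 4 of 7 positive. The 95% intervals were narrow for the first ATF3 set, from 0.835-fold to 1.26-fold, and for BATF, from 0.779-fold to 1.21-fold. They were wide for FOS, from 0.324-fold to 2.57-fold, so a sizeable difference in FOS between the nursery groups cannot be told from none with these animals.

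**Figure D3:**
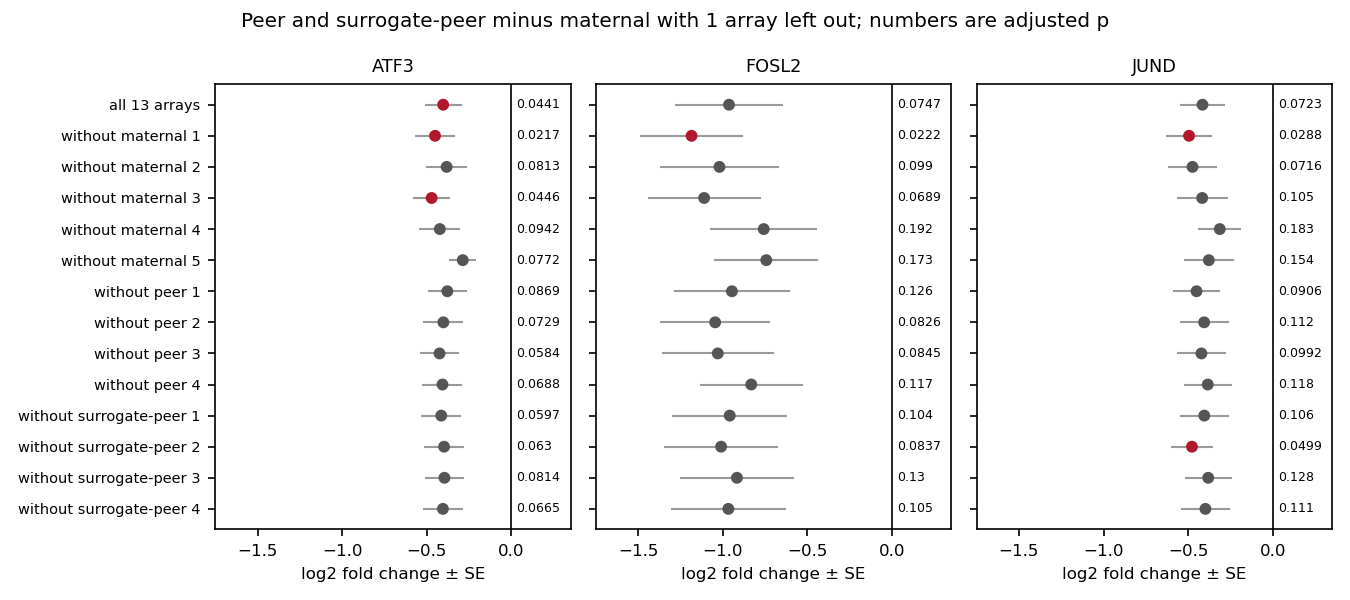
Log2 fold change ± SE of ATF3, FOSL2 and JUND (first set of each) in the pooled peer and surrogate-peer arrays minus maternal arrays, with all 13 arrays (top row) and with 1 array left out (other rows). Red points have a limma adjusted p under 0.05, printed at the right; ATF3 lies between -0.47 and -0.29 and passes with all arrays and in 2 of the 13 rows with an array left out.

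Group order was similar for 5 of the 6 genes at the brightest probe set. Maternal animals had the highest mean for FOSL2, JUNB, JUND, ATF3 and BATF, and the lowest for FOS. Peer animals ranked below surrogate-peer animals for JUNB, JUND and ATF3 and above them for FOS, FOSL2 and BATF, but these neighbours did not differ beyond their spread in any of the 6 genes. Maternal arrays 4 and 5 held the 2 highest values of FOSL2, JUNB and JUND, and surrogate-peer array 3, which had the highest FOS value, held the second lowest value of FOSL2, JUND, ATF3 and BATF. Maternal arrays 4 and 5 also had the highest neutrophil marker scores of the 13 arrays, 0.43 log2 units above the markers' mean on each, and peer array 4, lowest in FOSL2 and JUND, had the lowest, at -0.61. These scores average 6 of 9 listed neutrophil markers, 4 of them above the filter. Their summed level ran from 44.5 to 49.2 on maternal arrays, from 42.9 to 47.7 on peer arrays and from 44.6 to 48.5 on surrogate-peer arrays. Other cell types were scored as well, and maternal arrays 4 and 5 had the lowest basophil scores, -1.05 and -0.78. The part of these marker scores in the AP-1 values was not tested.

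**Figure D4:**
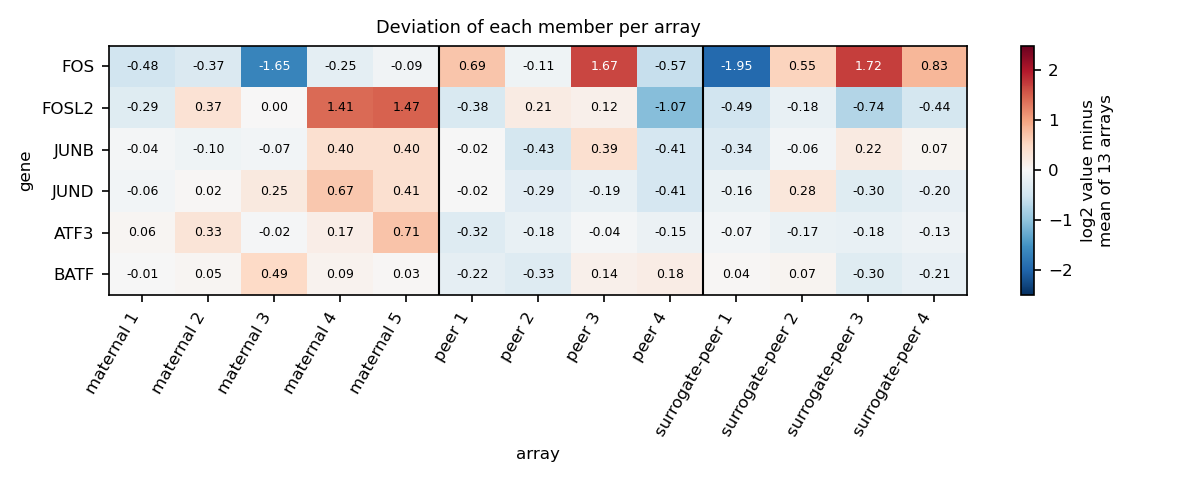
Deviation of each of the 6 AP-1 genes (rows, brightest probe set) from its own mean over the 13 arrays, in log2 units, for each array (columns, grouped by rearing). FOS reaches 1.72 on surrogate-peer array 3 and -1.95 on surrogate-peer array 1, while FOSL2 reaches 1.41 and 1.47 on maternal arrays 4 and 5.

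Whether members varied together over animals was tested in the 15 pairs of genes, with p-values adjusted over the 15. Pearson's r was positive in 11 pairs and negative in 4, and 2 pairs passed. FOSL2 and JUND gave r = 0.80 (permutation p = 0.00119, adjusted p = 0.0179; Spearman rho = 0.70, permutation p = 0.0104, adjusted p = 0.151). FOSL2 and ATF3 gave r = 0.77 (permutation p = 0.00406, adjusted p = 0.0305; Spearman rho = 0.64, permutation p = 0.0212, adjusted p = 0.151). Without maternal arrays 4 and 5, which lay farthest from the median of FOSL2, r was 0.48 and 0.51. Much of both relations thus rests on those arrays, and no pair passed by Spearman's rho. With each group's mean subtracted, r was 0.70 and 0.58. Neither pair passed in that form (permutation within groups, adjusted p = 0.149 and 0.445).

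FOS and JUNB, which respond to the same signals in many cells, gave r = 0.53 over all arrays (permutation p = 0.0627, adjusted p = 0.134; Spearman rho = 0.58, permutation p = 0.0398, adjusted p = 0.151). After each group's mean was subtracted, r was 0.80 (permutation within groups, p = 3.5e-04, adjusted p = 0.00525), the single pair to pass in that form. Within groups, the arrays with high FOS thus tended to have high JUNB, while between groups maternal animals had the lowest mean FOS and the highest mean JUNB. Without surrogate-peer arrays 1 and 3, the farthest from the FOS median, the r over all arrays was 0.38. The r after subtracting group means was not computed without them, so how far it rests on those arrays is not known. FOS and BATF gave the lowest r, -0.53 (permutation p = 0.0607, adjusted p = 0.134; Spearman rho = -0.44, permutation p = 0.134, adjusted p = 0.335), and -0.50 without the same arrays. FOS against FOSL2 gave no sign of a relation (r = -0.08, permutation p = 0.810, adjusted p = 0.868; Spearman rho = 0.01, permutation p = 0.993, adjusted p = 0.993), and r was -0.07 without the same arrays.

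**Figure D5:**
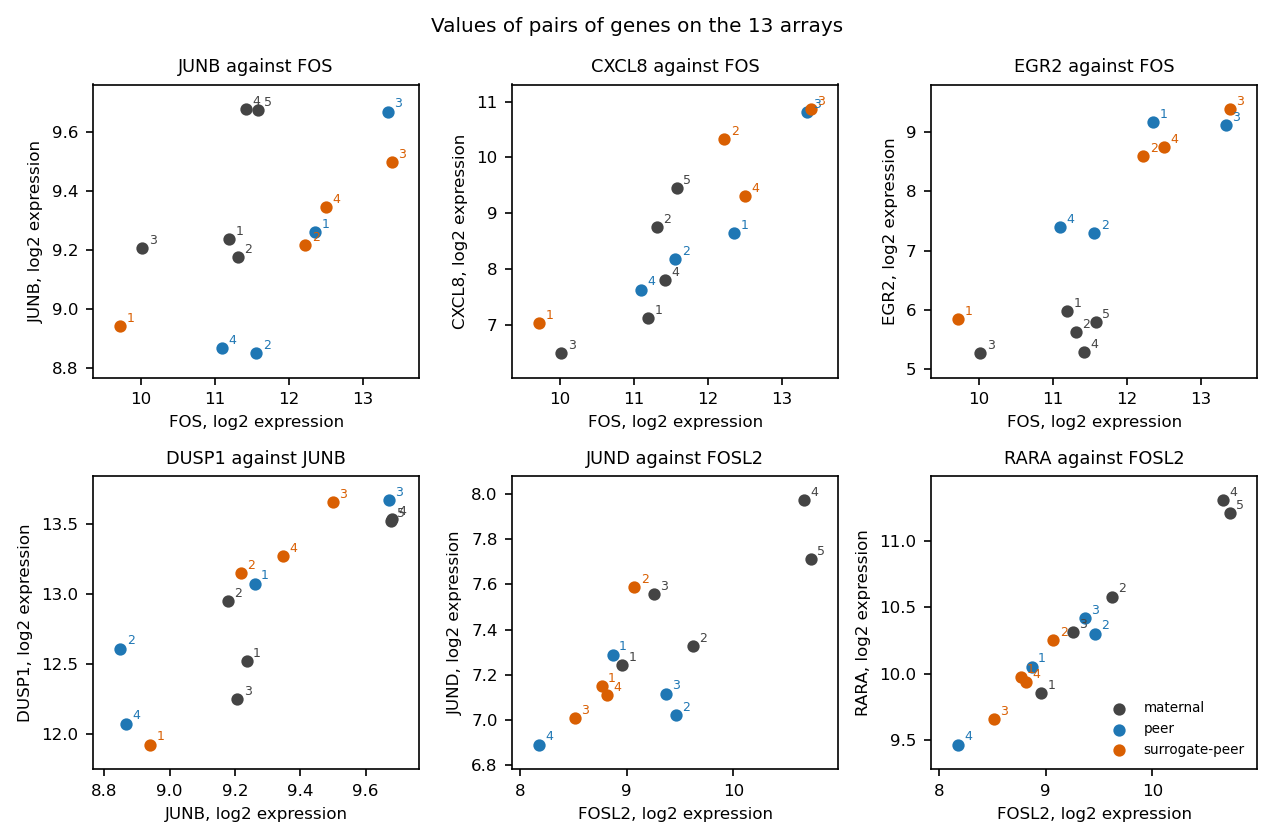
Log2 expression of 6 pairs of genes on the 13 arrays, with 1 point per array coloured by rearing group and numbered within it. RARA follows FOSL2 along a line that runs through all groups, whereas in the panel of EGR2 against FOS the maternal arrays, from 5.27 to 5.98 in EGR2, lie below peer and surrogate-peer arrays of a similar FOS level apart from surrogate-peer array 1.

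The genes whose pattern over the 13 arrays was most like each member were sought among 8986 named genes, with 2 kept per member. This is a ranking of many genes and carries no test. FOS was followed most closely by CXCL8, the neutrophil chemoattractant interleukin-8 (Pearson r = 0.90), and CLSPN, a replication checkpoint adaptor (r = 0.87). CXCL8 was 10.81 on peer array 3 and 10.87 on surrogate-peer array 3, where FOS was highest, and 7.03 on surrogate-peer array 1, where it was lowest. JUNB was followed by PAX4 (r = 0.87) and DUSP1 (r = 0.86), a phosphatase that switches off MAP kinases and is itself an immediate early gene. FOSL2 was followed by the retinoic acid receptor gene RARA (r = 0.99) and the phosphate exporter gene XPR1 (r = 0.98).

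JUND was followed by TOM1 (r = 0.95), an endosomal trafficking gene, and PLEKHO2 (r = 0.94). ATF3 at its first set was followed by CD274, which encodes the inhibitory ligand PD-L1 (r = 0.96), and KIDINS220 (r = 0.95). Of the 12 genes named by likeness, 2 passed between non-maternal and maternal animals, against 7.99% of all tested probe sets: CD274 fell (-1.18, limma adjusted p = 0.0239) and CLSPN rose (2.62, adjusted p = 0.0368). Genes chosen for a high r with a member over all arrays tend to share its group difference, so these calls are no separate support. BATF was followed by the immunoproteasome subunit gene PSMB10 (r = 0.90) and the pyroptosis effector gene GSDMD (r = 0.87). After the group means were subtracted, r stayed at 0.87 or above in all 12 of these pairs.

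Other genes of the pathway were taken from 4 lists, each gene at its brightest probe set, and compared between non-maternal and maternal animals. Over all tested probe sets 6.64% rose, 1.35% fell and 29% had an unadjusted p under 0.05. Among 23 tested of 30 other basic leucine zipper factors and partners, 1 rose and 0 fell by limma, and 9 had an unadjusted p under 0.05. Their median difference was -0.18 against 0.01 over all probe sets. The gene that rose was ATF1, a cyclic AMP-responsive factor (0.37 ± 0.09, SE, adjusted p = 0.0380). Of its 4 other tested probe sets, with differences from -0.08 to 0.69, 0 were called. CEBPB, a factor of myeloid cells, gave -0.75 (adjusted p = 0.0687). ATF2 and CREB1, constitutive factors activated by phosphorylation, gave 0.49 (adjusted p = 0.0731) and 0.34 (adjusted p = 0.0759).

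Of 14 tested kinases, phosphatases and their targets upstream of AP-1, out of 27 listed, 1 rose and 1 fell. Over all tested probe sets 6.64% rose and 1.35% fell. The median of the list was -0.17. MAP2K1, the kinase MEK1 of the ERK pathway, rose by 0.53 ± 0.11 (SE, adjusted p = 0.0246). RPS6KA1, the ERK-activated kinase RSK1 that phosphorylates FOS, fell by 0.46 ± 0.09 (SE, adjusted p = 0.0226). MAP2K3, a p38 activator, gave -0.31 (adjusted p = 0.0841), and ELK1, an ERK-responsive activator of the FOS promoter, gave -0.17 (adjusted p = 0.103).

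Of 15 tested AP-1 target genes, out of 26 listed, 0 rose and 1 fell, against 6.64% and 1.35% of all tested probe sets. At an unadjusted p under 0.05 there were 2 of 15, against 29% of all, and the median was 0.02. The gene that fell was PRDM1, the factor BLIMP-1 of plasma cells and effector lymphocytes (-0.73 ± 0.19, SE, adjusted p = 0.0401). Its other probe set gave -0.89 and was also called. TIMP1, an inhibitor of matrix proteases, gave 0.04 at its brightest set, but 1 of its 2 other tested sets, at 0.31 and 0.44, was called higher. The activation marker CD69 gave 0.82 (adjusted p = 0.144), the inflammatory cytokine gene IL1B -0.64 (adjusted p = 0.263) and CTLA4, an inhibitory receptor of T cells, 0.16 (adjusted p = 0.278).

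Of 18 tested immediate early genes outside the family, out of 27 listed, 2 rose and 2 fell, against 6.64% and 1.35% of all tested probe sets. The median of the list was 0.13. EGR2, a zinc finger factor induced by antigen receptors, rose (2.59 ± 0.53, SE, adjusted p = 0.0238), and so did MYC, a driver of growth (0.83 ± 0.21, adjusted p = 0.0356). TSC22D3, the glucocorticoid-induced leucine zipper protein GILZ, fell by 0.61 ± 0.13 (adjusted p = 0.0239), and IER5 by 0.61 ± 0.13 (adjusted p = 0.0269). EGR2 shared with FOS its low value on surrogate-peer array 1 (5.85, against 8.59 to 9.38 on the other surrogate-peer arrays) and its highest value on surrogate-peer array 3, but EGR2 was low on all 5 maternal arrays, from 5.27 to 5.98. All maternal EGR2 values lay below the filter of 6.04, so this set entered the test only through the groups where it was high. Among other probe sets of the listed genes, 2 of the 3 tested for TNFAIP3 were called, with differences from 0.03 to 0.66. The list calls were easily lost: without maternal array 4, and likewise without maternal array 5, all 4 lists had 0 genes called in either direction. With the 3' to 5' ratio as a covariate, the 2 higher calls among the immediate early genes were the only list calls made. The single higher call among the zipper factors was also lost under median centring and quantile normalization, and the list of zipper factors reached 5 genes called higher and 3 lower at most when 1 array was left out.

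Cell type markers differed in the main comparison in some lists and not in others. Over all tested probe sets 6.64% rose and 1.35% fell in this comparison. Of the NK and cytotoxic markers 9 of 10 were measured; all 9 had negative differences and 5 fell, and their summed log2 level ran from 87.2 to 95.5 on maternal arrays, from 78.9 to 88.9 on peer arrays and from 76.6 to 90.4 on surrogate-peer arrays. Of the monocyte markers 10 of 11 were measured, 7 had negative differences and 1, MS4A7, fell, with summed levels from 93.9 to 108 on maternal arrays, from 92.9 to 99.7 on peer arrays and from 92.6 to 103 on surrogate-peer arrays. Maternal arrays 2 and 5, the highest in the first ATF3 set, had the highest monocyte marker scores, 0.94 and 0.88 log2 units above the markers' mean.

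T cell markers were measured for 8 of 11 genes, without the CD3 chains; all 8 had positive differences and 1, BCL11B, rose, with a maternal mean of 5.87 below the filter. Other probe sets of CD8A (0.89) and TRAT1 (0.83) were also called. The summed T cell level ran from 70.03 to 75.1 on maternal arrays, from 75.4 to 77.8 on peer arrays and from 74.7 to 78.3 on surrogate-peer arrays. B cell markers, 8 of 10 measured, had negative differences in all 8, and 1, FCRLA, fell. Of the 3 other tested probe sets of MS4A1, with differences from -1.07 to -0.56, 1 was called. The B cell sums were 75.5 to 82.7, 72.6 to 78.9 and 65.3 to 73.2 in the same order of groups. Between surrogate-peer and peer animals all 8 B cell markers had negative differences with an unadjusted limma p under 0.05, against 1.83% of all tested probe sets, and 0 passed. Against maternal animals 8 of 8 had such a p in surrogate-peer animals, where 20.3% of all tested probe sets did. In peer animals 1 of 8 had such a p, where 24.9% of all did. All measured markers of these 4 cell types lay above the filter. In the main comparison 3 of 5 basophil markers, all measured, were tested and 2 rose, against 6.64% of all tested probe sets. Of the platelet markers 0 of 6 passed, and of the tested neutrophil markers 0 of 4, against 7.99% of all. At an unadjusted p under 0.05 there were 1 and 2, against 29% of all. The part of these marker differences in the AP-1 values was not tested.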

How the data were processed

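The authors deposited log2 expression values, made with RMA per the submitters' processing notes. Its settings, and any joint normalization of the 13 arrays, were not given in the sources used here. Array medians ran from 5.995 to 6.06. Precision is limited by how many arrays there are, since arrays have no depth. Replicates were numbered in accession order, and the labels do not say more of their origin than the rearing and age, so p-values measure the spread between these samples.

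Of 52865 probe sets, 99 control sets were left out; 24956 of the rest carry 1 gene symbol, 361 several and 27449 none. Probe sets with a mean above the median of the means, 6.04, (26383) entered the test. All contrasts came from limma 3.58.1 (lmFit, eBayes; R 4.3.3), run on all 13 arrays in 1 fit, two-sided, with Benjamini-Hochberg adjustment over all tested sets and a threshold of 0.05. The brightest probe set stands for a gene. Gene identifiers of all 6 measured members matched those of RefSeq, whose gene order was used for neighbours; no coordinates or sequences are printed. Named genes were all members, the up to 4 genes of each list with the smallest p in the main comparison, and the 2 genes most correlated with each member. Correlations used 100000 permutations in Python 3.11.15. The fit was tested on simulated data. Alternatives were other filters, normalizations, spread estimates, covariates and left-out arrays. Members and lists were chosen with earlier results of these data known.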

Additional observations from a re-analysis of the deposited data

Results flagged for a closer look

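Among 27 groups of 4 or 5 values (9 AP-1 probe sets in 3 rearing groups), 3 held an array far from the rest of its group by Dixon's test at 95%, where chance gives about 1 in 20. FOS on maternal array 3 was 10.02, against 11.19 to 11.59 on the other maternal arrays; without that array the FOS difference of non-maternal from maternal animals was 0.65 in place of 0.92, and it did not pass in either case. BATF on the same maternal array 3 was 8.35, against 7.85 to 7.95 on the others, so this array was the lowest maternal array in FOS and the highest in BATF. The second FOSL2 set on surrogate-peer array 3 was 5.33, against 5.63 to 5.67 on the other surrogate-peer arrays; this set lay below the filter and entered no test. Surrogate-peer array 3 was also the lowest of its group at the first FOSL2 set, at 8.51.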

How the results depend on the processing

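The call of 1 AP-1 probe set in non-maternal against maternal animals became 0 without the filter on low probe sets and 0 after quantile normalization. It was also 0 without maternal arrays 2 and 5, which hold the highest values of the called set. With single arrays left out it ran from 0 to 3, with the 3 reached without maternal array 1. The ATF3 adjusted p was 0.0588 without the filter and 0.0547 after quantile normalization. For peer against maternal animals the count of 0 became 1 with the title number and 1 with the 3' to 5' ratio as covariate, ATF3 each time. With the title number 1818 of all 26383 tested probe sets passed as well, against 93 in the main fit. The number over all probe sets with the 3' to 5' ratio is not given here. The AP-1 count ran from 0 to 2 with single arrays left out. For surrogate-peer against maternal it ran from 0 to 1, reaching 1 without maternal array 1. The count of 2 correlated pairs was 1 after subtracting group means, and that 1 was another pair, FOS and JUNB. It was 0 without maternal arrays 2 and 5 and 0 by Spearman's rho. That rho was planned beside Pearson's r, but counting by it in place of r was chosen after seeing the data. The cause of these shifts was not tested. At the brightest set of each of the 6 genes, differences from maternal animals kept their sign under every alternative run, except FOS in surrogate-peer animals, which was -0.55 with the title number as covariate. Differences between surrogate-peer and peer animals, none called, changed sign in 13 of 150 refits: FOS 0.0060 with array weights, with the title number JUNB -0.25, ATF3 -0.20 and BATF 0.0043, and ATF3 -0.088 with the 3' to 5' ratio. With single arrays left out they ran from -0.61 to 0.61 for FOS, -0.015 to 0.26 for JUNB, -0.014 to 0.078 for ATF3 and -0.13 to 0.037 for BATF. The second ATF3 set entered the counts of calls, but its differences under the alternatives were not tabulated. Over all probe sets 2107 passed in the main comparison, from 30 without maternal array 4 to 4826 without maternal array 1, and the higher share was 83.1%; it was 56.8% with array medians centred and 66.3% after quantile normalization. No paired analysis was made, because each sample has 1 rearing condition and the labels link no samples across groups.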

Other observations

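FOS and BATF lie close together on macaque chromosome 7 in the RefSeq annotation of assembly T2T-MMU8v2.0, with 1 protein-coding gene between them. That gene is JDP2, a basic leucine zipper protein that pairs with Jun proteins and represses AP-1 sites, and it was singled out here for its position after its values were seen. JDP2 ran from 9.42 to 11.17 in maternal, from 9.44 to 9.90 in peer and from 9.13 to 10.30 in surrogate-peer animals, with overlap between the groups. Its difference of non-maternal from maternal animals was -0.76 ± 0.29 on the log2 scale (SE, limma adjusted p = 0.112) and did not pass. The 3 neighbours thus had differences of 0.92 for FOS, -0.76 for JDP2 and -0.21 for BATF, none past the threshold.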
